A study of Danio rerio with 24 samples.

Results

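Ribosome biogenesis is the making of ribosomes in the nucleolus. RNA polymerase I (Pol I) transcribes the ribosomal RNA precursor, small nucleolar ribonucleoproteins (snoRNPs) guide its chemical modification, and a long series of assembly factors cleaves and folds it into the small (40S) and large (60S) subunits. The pathway is costly for the cell and is known to follow nutrient supply and growth, and liver, which makes most plasma proteins, depends on it. The 43 genes described here are those of a table of 19793 zebrafish genes whose symbols belong to the *polr1*, *nop*, *nol*, *utp* and *rrp* families or to a short set of named factors such as *fbl* and *pes*, with a summed count of at least 100. Of 45 matching symbols, *nol4lb* (57 counts) and *polr1e* (0 counts) fell below that sum. By role, the 43 genes were 4 Pol I subunits, 2 box C/D and 3 box H/ACA snoRNP proteins, 20 factors of 40S assembly, 12 factors of 60S assembly, the nucleolar histone chaperone *npm1b*, and *nol4la*, which matched by its name alone.

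Bulk RNA was measured in pools of 40 livers from larvae at 7 days post fertilization (dpf), the age in the study's methods. The study's results text gives 5 dpf for the WT and *mtm* livers. *mtm* larvae (6 libraries) were homozygous for a loss-of-function allele of *mtm1*, the phosphoinositide phosphatase gene of X-linked myotubular myopathy. EtOH larvae (4 libraries) were WT larvae kept in 2% ethanol for 32 hours, overfed larvae (4 libraries) were WT larvae given 6 times the normal food from 5 to 7 dpf, and WT larvae (4 libraries) were untreated fish of the AB strain. The treatments served as models of diet-related and alcohol-related liver injury, to which the transcriptome of *mtm* livers was compared. The *mtm* libraries came as 1, 2 and 3 and as the resubmitted R1, 2R and 3R, while the study's methods give 4 to 5 replicates per group. The labels do not say whether the resubmitted ones were new pools. The p-values therefore measure the spread between libraries of pooled larvae, part of which may be technical.

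Library totals were 8919274 to 15831830 counts in *mtm*, 11059423 to 18948277 in EtOH, 15131025 to 20582311 in overfed and 9297847 to 17717723 in WT livers. Levels are given as CPM, the counts per 1000000 of the scaled total of each library, and 11489 genes passed the filter on low counts, among them all 43 genes of the set. The mutated gene, *mtm1*, lay between 0.159 and 2.38 CPM in *mtm* livers, against 3.23 to 7.92 CPM in WT livers, without overlap (log2 fold change -1.83, SE 0.72, edgeR adjusted p = 0.0884). The library labelled EtOH replicate 1 also held little *mtm1*, at 0.175 CPM from 3 counts, against 2.23 to 4.88 CPM in the other EtOH libraries. The median of the set in EtOH livers and the *polr1a* result against EtOH livers are therefore also given without it. Calls of genes outside the set, cell type markers included, were not repeated without it. In summed hepatocyte markers (16 genes listed, 11 in the table) the libraries held 23547 to 120210 CPM in *mtm*, 54781 to 93278 in EtOH, 147750 to 196080 in overfed and 112940 to 202530 in WT livers. The highest *mtm* value was that of replicate 1, which also held 21737 CPM of exocrine pancreas markers, while the other 5 *mtm* libraries held 23547 to 43274 CPM of hepatocyte markers. Without it the number of ribosome biogenesis genes called in *mtm* against WT livers was the same, with a median log2 fold change of -0.29 over the set. Macrophage markers (15 listed, 13 in the table) summed to 153 to 346 CPM in *mtm*, 23.1 to 59.3 in EtOH, 6.71 to 20.8 in overfed and 4.02 to 18 in WT livers. WT replicate 4 held 71391 CPM of exocrine pancreas markers (16 listed, 14 in the table), against 1286 to 13143 CPM in the other WT libraries, and 792 CPM of endothelial markers (14 listed, 12 in the table), against 154 to 240 CPM. Fewer cells of a type and less RNA per cell cannot be told apart in pooled tissue.

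The ribosome biogenesis genes were low together in replicate 4 of the overfed and of the WT group, and lay within a narrow range in *mtm* and EtOH livers. For each library, the level of the set was taken as the median over the 43 genes of log2 CPM minus that gene's mean over the 4 groups. It was -0.18, 0.02 and -0.41 in *mtm* replicates 1, 2 and 3, and -0.06, -0.29 and -0.17 in R1, 2R and 3R. The EtOH libraries 1 to 4 lay close together, at 0.13, -0.13, 0.04 and 0.04. Among overfed libraries, 1, 2 and 3 were high, at 0.57, 0.68 and 0.44, and replicate 4 was low, at -0.60. In WT livers replicate 4 was also the lowest, at -0.87, with 0.54, -0.15 and 0.36 in replicates 1, 2 and 3. By Dixon's test for a value apart from the rest, no library's level was marked within its group. The groups averaged -0.18 ± 0.16 in *mtm* (SD, n = 6), 0.02 ± 0.11 in EtOH, 0.27 ± 0.59 in overfed and -0.03 ± 0.63 in WT livers (SD, n = 4 each), so the difference between any pair of groups was smaller than the SD of the WT libraries. Without replicate 4 the overfed libraries averaged 0.56 ± 0.12 and the WT libraries 0.25 ± 0.35 (SD, n = 3 each). The median of all tested genes stayed between -0.09 and 0.08 in every library.

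**Figure D1:**
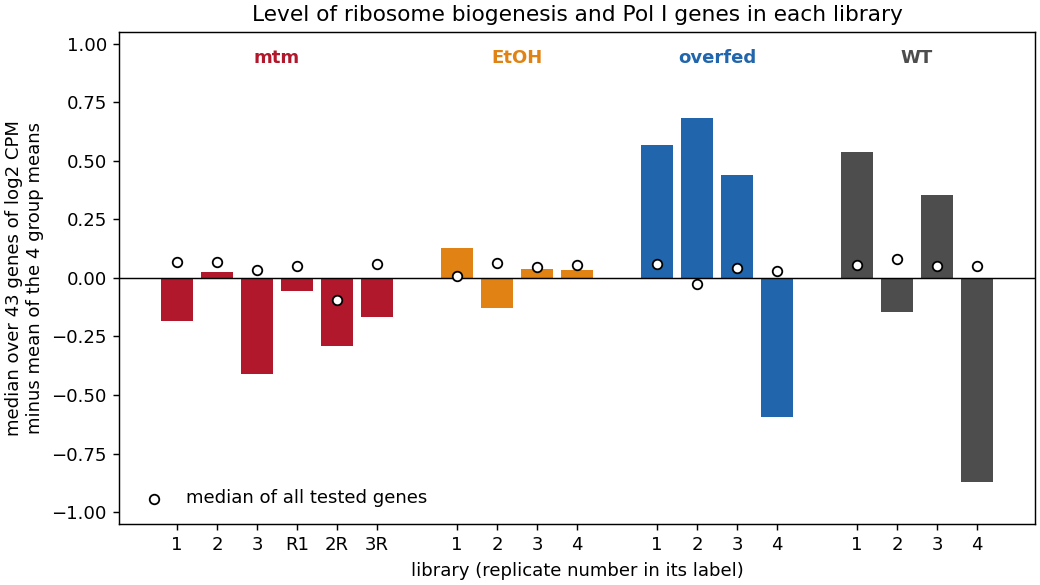
Level of the ribosome biogenesis and Pol I genes in each library: bars give the median over 43 genes of log2 CPM minus the gene's mean of the 4 group means, and open circles the same median over all tested genes. Overfed replicate 4 (-0.60) and WT replicate 4 (-0.87) are the lowest bars of their groups, while the EtOH bars run from -0.13 to 0.13.

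Replicate 4 held the lowest level of its group for 37 of 43 genes in overfed livers and for 31 of 43 in WT livers. These were 86% and 72.1% of the set, while replicate 4 was lowest for 34.7% of all tested genes in overfed and for 31% in WT livers. In *mtm* and EtOH livers no library was lowest for more than 15 and 18 of the 43 genes. Fibrillarin, *fbl*, the methyltransferase of box C/D snoRNPs, shows the pattern. The *mtm* libraries held 34.5 to 80.9 CPM with a median of 67.4, and the EtOH libraries 68.4, 57.4, 72.6 and 65.5 CPM. It stood at 152, 194, 154 and 75.7 CPM in overfed replicates 1 to 4, and at 150.0, 106, 136 and 26.8 CPM in WT replicates 1 to 4. Replicates 1 to 3 of both the overfed and the WT group thus lay above every *mtm* and EtOH library, and WT replicate 4 below all of them. *nop2*, an rRNA methyltransferase of the 60S pathway, reached 87.9, 103.45, 85.9 and 11.8 CPM in the overfed libraries and 70.7, 43.6, 43.5 and 6.98 CPM in the WT libraries. *nop58*, the scaffold protein of box C/D snoRNPs, had 151, 170, 138 and 21 CPM in overfed and 112, 53.0, 80.2 and 15.7 CPM in WT livers.

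The spread of the set between libraries was ordered differently from that of other genes. The median SD of log2 CPM over the 43 genes was 0.53 in *mtm*, 0.37 in EtOH, 0.60 in overfed and 0.71 in WT livers, and over all tested genes it was 0.71, 0.54, 0.40 and 0.53 in the same groups. In *mtm* and EtOH livers 13 of 43 genes in each varied more than the median tested gene, against 32 in overfed and 29 in WT livers. Without the libraries numbered 4, the median SD of the set was 0.43 in EtOH, 0.19 in overfed and 0.43 in WT livers, and that of all tested genes 0.56, 0.28 and 0.44. With them left out, the median SD of the set no longer exceeded that of all tested genes in overfed and WT livers. That choice was made after seeing the data, and leaving out the lowest library narrows a spread by itself. The level of the set still had an SD of 0.35 in WT livers, against 0.13 in EtOH and 0.12 in overfed livers (n = 3 each). The low level of WT replicate 4 came together with the high pancreatic and endothelial markers given above. Its bile duct markers were at 3101 CPM, against 1201 to 1669 CPM in the other WT libraries. Its neutrophil markers were at 93.5 CPM, against 23.1 to 35.4 CPM. In overfed replicate 4 pancreatic markers, at 3264 CPM, lay within the 448 to 5499 CPM of the other overfed libraries. Endothelial markers were at 295 CPM, against 113 to 223 CPM, and bile duct markers at 1466 CPM, against 1151 to 1264 CPM. Neutrophil markers were at 20.9 CPM, against 21.6 to 24.8 CPM. Hepatocyte markers were at 147750 CPM, against 164000 to 196080 CPM. In WT replicate 4 hepatocyte markers, at 168810 CPM, lay within the 112940 to 202530 CPM of the other WT libraries. The part of these markers in the low levels was not tested.

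**Figure D2:**
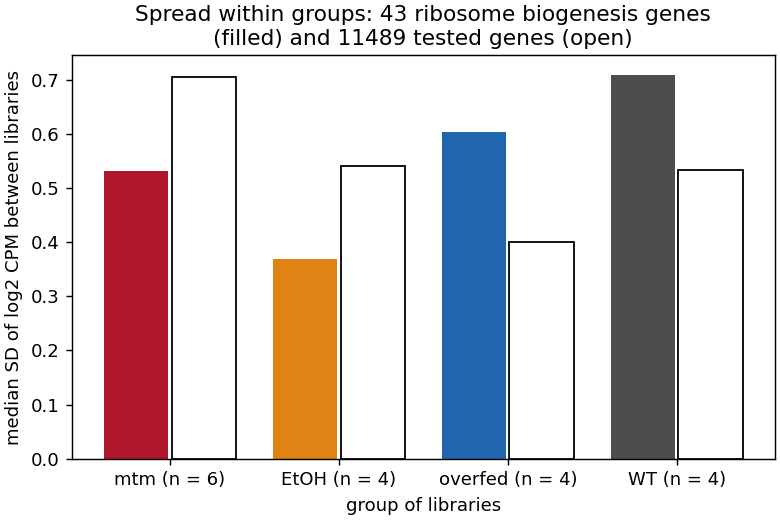
Median SD of log2 CPM between the libraries of each group, over the 43 ribosome biogenesis genes (filled bars) and over all tested genes (open bars). The filled bar is the shorter one in *mtm* (0.53 against 0.71) and EtOH livers (0.37 against 0.54) and the taller one in overfed (0.60 against 0.40) and WT livers (0.71 against 0.53).

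Other assembly factors and RNA exosome subunits, which the symbol rule did not take, showed the same low libraries. Pol I initiation and elongation factors did so less clearly. Their median level was 0.16 in overfed replicate 4, and -0.17 in WT replicate 4 beside -0.15 in WT replicate 3. Overfed replicate 4, WT replicate 4 and WT replicate 3 were each lowest for 2 of 4 of these factors. Overfed replicate 4 was the lowest overfed library for 26 of 31 other 40S assembly factors and 33 of 43 other 60S assembly factors. WT replicate 4 was the lowest WT library for 22 of the 31 and for 31 of the 43. The median level of the other 60S factors was 0.54, 0.55, 0.40 and -0.47 in overfed replicates 1 to 4, and 0.44, 0.01, 0.34 and -0.71 in WT replicates 1 to 4. RNA exosome subunits, which trim and degrade rRNA precursors, were lowest in overfed replicate 4 for 10 of 14 genes and in WT replicate 4 for 9 of 14. Of the cytoplasmic ribosomal proteins, which the pathway assembles, overfed replicate 4 was the lowest of its group for 3 of 68 and WT replicate 4 for 50 of 68. The median level was 0.08 in overfed replicate 4 and -0.24 in WT replicate 4. The other groups also had 1 library lowest for most of the 68: *mtm* replicate 3 for 66, EtOH replicate 4 for 56 and overfed replicate 2 for 65. In overfed replicate 2 the median level was -0.27. RNA polymerase II makes messenger RNA and shares some of its subunits with Pol I, so its list is not wholly outside the pathway. Its subunits were lowest in overfed replicate 4 and WT replicate 4 for 8 and 9 of 13 genes.

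**Figure D3:**
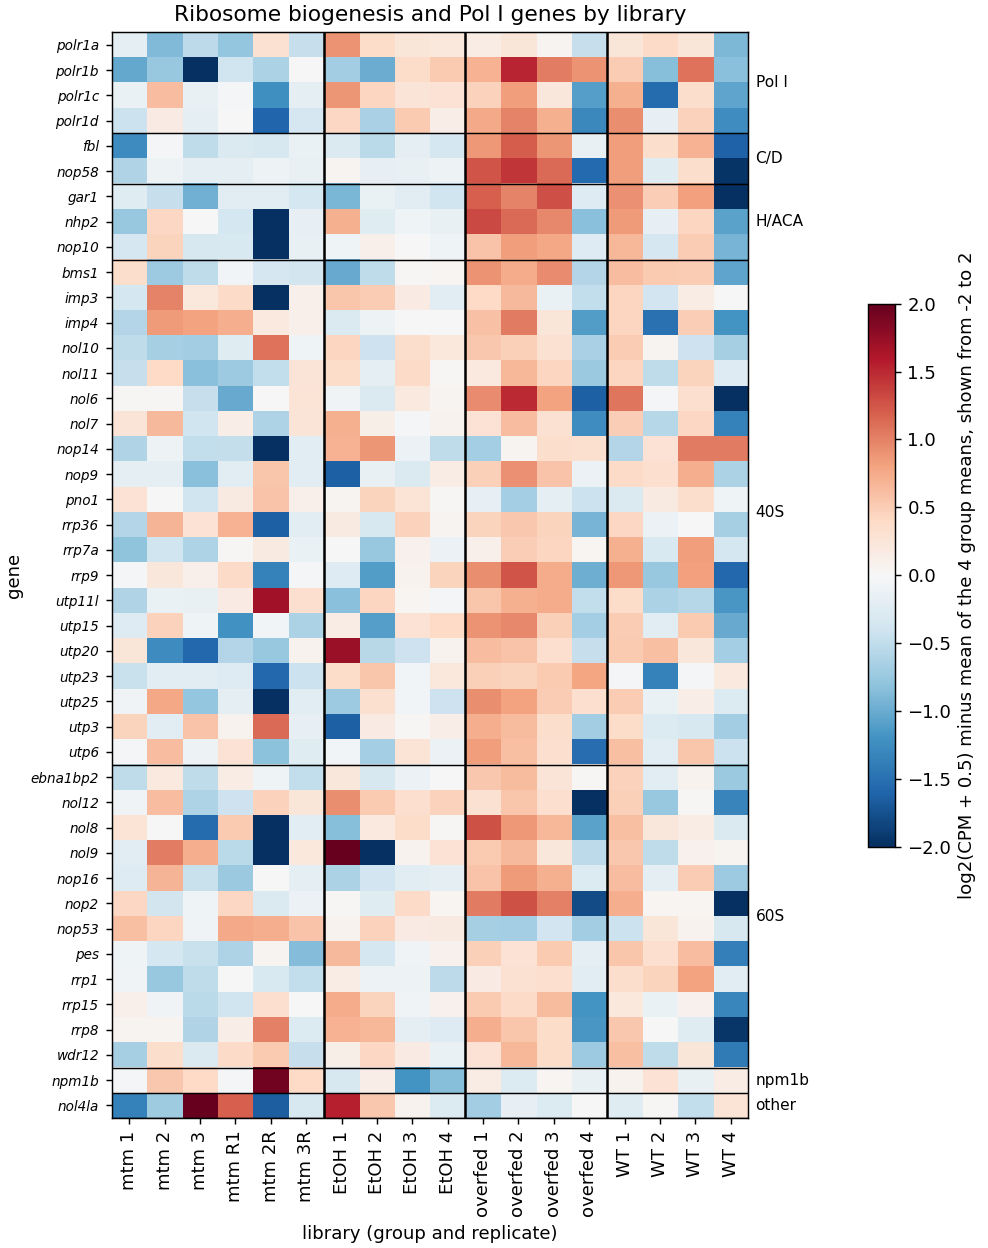
Level of each of the 43 genes (down) in each library (across), as log2(CPM + 0.5) minus the gene's mean of the 4 group means, with colours limited to -2 and 2 and genes ordered by role. Columns overfed 4 and WT 4 are blue (low) in most genes, and the other overfed columns mostly red (high).

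In *mtm* livers, 1 of the 43 genes fell below WT, *rrp1*, and none rose. *RRP1* is known from yeast as an early factor of 60S assembly. Fold changes of the set lay mostly below 0, with a median log2 fold change of -0.34 beside 0.01 for all tested genes and 32 of 43 values negative, but few were large against their error. With libraries scaled by their totals alone, the medians were 0.09 for the set and 0.39 for all tested genes, so the sign of the set's median flipped while it stayed below that of all genes. The share of genes called lower was 2.33% (1 of 43), against a background of 8.59% of tested genes, and that called higher was 0 of 43, against 10.1%. No gene of the set had groups without overlap, neither with higher *mtm* libraries, where the background was 6.88%, nor with lower ones, where it was 6.58%. At an unadjusted p under 0.05, 7 genes of the set were lower and 1 higher, against 30.4% of all tested genes in either direction. DESeq2 called 1 gene of the set lower and 1 higher, and 1349 lower and 1516 higher of all genes.

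*rrp1* ranged from 22.6 to 38.5 CPM in *mtm* livers, with a median of 29.1, against 49.4, 52.6, 67.7 and 32.8 CPM in WT livers. WT replicate 4 lay inside the *mtm* range and the other WT libraries above it. The means were 30.5 ± 6.14 CPM in *mtm* (SD, n = 6) and 50.6 ± 14.3 CPM in WT livers (SD, n = 4), with a log2 fold change of -0.86 (SE 0.20, edgeR quasi-likelihood test with Benjamini-Hochberg adjustment, adjusted p = 0.00617). It was called in 27 of 30 alternative analyses, and was lost without WT replicate 3 (-0.69, edgeR adjusted p = 0.0521), with only the groups compared (-0.91, edgeR adjusted p = 0.0513) and with libraries scaled by their totals alone (-0.48, edgeR adjusted p = 0.140). Some of the alternatives left out only an EtOH or overfed library, so the *mtm* and WT counts of *rrp1* were the same in them.

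Of the 5 snoRNP proteins of the set, all with negative fold changes, none was called. They were 2 of 5 listed box C/D and 3 of 4 listed box H/ACA proteins, so the particles were covered in part. *fbl* averaged 64.1 ± 16.5 CPM in *mtm* livers, against 105 ± 55.0 CPM in WT livers (log2 fold change -0.81, SE 0.31, edgeR adjusted p = 0.0822). *gar1*, a core protein of the box H/ACA particles that guide pseudouridylation, ranged from 22.3 to 37.5 CPM in *mtm* livers with a median of 35.8, against 83.6, 62.3, 78.4 and 9.54 CPM in WT livers. Again the low WT value was replicate 4, and the other WT libraries lay above every *mtm* library (log2 fold change -0.89, SE 0.35, edgeR adjusted p = 0.0895). Its partners *nhp2* and *nop10* had log2 fold changes of -0.68 and -0.51, and *nop58* of -0.41, all 3 far from the threshold. Without WT replicate 4, edgeR called 4 of the 43 genes lower in *mtm* livers, beside 966 of all 11557 tested genes. They were *fbl*, *gar1*, *rrp1* and *pes*, a subunit of the PeBoW complex of 60S assembly, and the median of the set was -0.43. The same 4 genes were called when the libraries numbered 4 were left out of every group, beside 923 of all 11734 tested genes. Leaving out every library numbered 4 was chosen after seeing the data.

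All 4 Pol I subunits of the set had negative fold changes in *mtm* livers without a call. *polr1a*, the largest catalytic subunit, was at 26.3 to 60.7 CPM in *mtm* livers, with a median of 34.8, against 58.4, 64.2, 58.2 and 26 CPM in WT livers, and the groups overlapped (log2 fold change -0.55, SE 0.25, edgeR adjusted p = 0.143). *polr1b*, its partner in the catalytic core, was scarce, at 0.845 to 5.09 CPM in *mtm* livers, against 2.59 to 11.4 CPM in WT livers (log2 fold change -0.93, SE 0.55). *polr1c* and *polr1d*, which Pol I shares with Pol III, had log2 fold changes of -0.12 and -0.66.

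Among the 20 factors of 40S assembly, 15 fold changes were negative and 5 positive, with a median of -0.28 and no call. The lowest were *nop14* (-1.12, SE 0.50, edgeR adjusted p = 0.143) and *utp20* (-1.02, SE 0.45, edgeR adjusted p = 0.131), both parts of the small subunit processome that forms on the nascent precursor. *nop14* ranged from 1.19 to 6.86 CPM in *mtm* livers, against 4.74, 9.10, 15.7 and 15.7 CPM in WT livers, and here WT replicate 4 was among the highest. *utp20* ranged from 2.24 to 9.11 CPM in *mtm* livers, against 11.2, 11.9, 8.98 and 4.60 CPM in WT livers. *bms1*, a GTPase of the processome, averaged 26.4 ± 7.54 CPM in *mtm* livers, against 37.9 ± 15.6 CPM in WT livers, and *imp4*, a protein bound to the U3 snoRNA, averaged 20.5 ± 7.10 and 13.3 ± 8.87 CPM in *mtm* and WT livers.

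Of the 12 factors of 60S assembly, 8 had negative and 4 positive fold changes in *mtm* livers, and *nop53* had the highest. It helps bring the RNA exosome to the maturing 60S subunit, a role known from yeast. It ranged from 125 to 224 CPM in *mtm* livers with a median of 198, against 97.7, 156, 139 and 106 CPM in WT livers (log2 fold change 0.58, SE 0.21, edgeR adjusted p = 0.0690). 5 of 6 *mtm* libraries lay above every WT library, and DESeq2 called it, with an adjusted p of 0.0407. *wdr12*, another PeBoW subunit, had a log2 fold change of -0.06 and *nop2* of -0.07. *npm1b*, one of the zebrafish nucleophosmin genes, ranged from 14.2 to 56.8 CPM in *mtm* livers, where 2R stood alone at the top, while WT livers held 13.1 to 17.9 CPM. Its close relative *npm1a* was not analysed here, and reads shared by both could have been split between them.

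**Figure D4:**
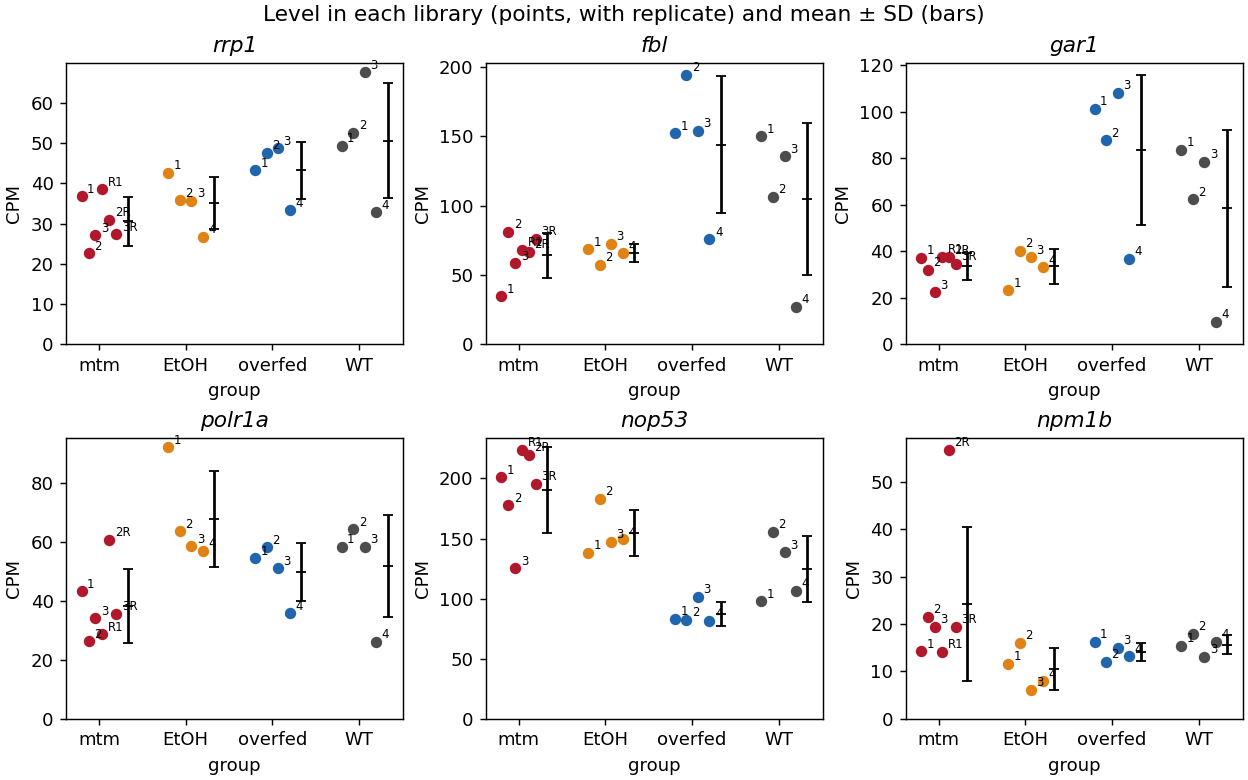
CPM in each library (points, labelled with the replicate) and mean ± SD (black bars) of *rrp1*, *fbl*, *gar1*, *polr1a*, *nop53* and *npm1b* in *mtm*, EtOH, overfed and WT livers. In *fbl* and *gar1* the mtm and EtOH points lie between WT replicate 4 (26.8 and 9.54 CPM) and the other WT points.

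The fit took the replicate number as a term and no *mtm* library is numbered 4, so fitted fold changes of *mtm* livers can differ from the ratio of the group means. For 6 of the 43 genes the fitted sign and the sign of the difference in mean CPM were opposite. In mean CPM 26 genes were lower and 17 higher in *mtm* than in WT livers, with a median log2 ratio of the means of -0.24.

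The other genes of the pathway also gave few calls in *mtm* livers, in both directions. The background was 10.1% of tested genes higher and 8.59% lower. *ubtf*, the architectural factor of Pol I promoters, rose to 43.5 ± 5.41 CPM in *mtm* livers, against 19.3 ± 5.43 CPM in WT livers (log2 fold change 1.16, SE 0.25, edgeR adjusted p = 0.00323), the only one of 4 tested initiation and elongation factors to be called. Among 31 other 40S factors, *pwp2h* (-1.67) and *bud23* (-0.83) fell and *rcl1* (1.36) rose on the log2 scale. *PWP2* is known from yeast as a scaffold of the processome and *BUD23* as an rRNA methyltransferase. Among 43 other 60S factors, *rpf2* (-0.94), which helps place the 5S particle, fell, and *ddx21* (0.66), *nsa2* (0.59) and *rsl24d1* (0.60) rose. Of 68 cytoplasmic ribosomal proteins, *rplp2*, a protein of the 60S stalk, rose (1.02), and the median of that list was -0.06. Of 12 Pol III subunits, *polr3e* (-0.80) and *polr3gla* (-2.49) fell. *myca*, one of the zebrafish *MYC* genes, which are known to drive ribosome biogenesis, averaged 34.2 ± 7.23 CPM in *mtm* livers, against 13.7 ± 1.295 CPM in WT livers and rose (log2 fold change 1.28, SE 0.35, edgeR adjusted p = 0.0162). It was the only gene called of 14 tested genes of *MYC* and growth control. The median of that list was -0.14, with 8 values below 0 and 6 above.

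**Figure D5:**
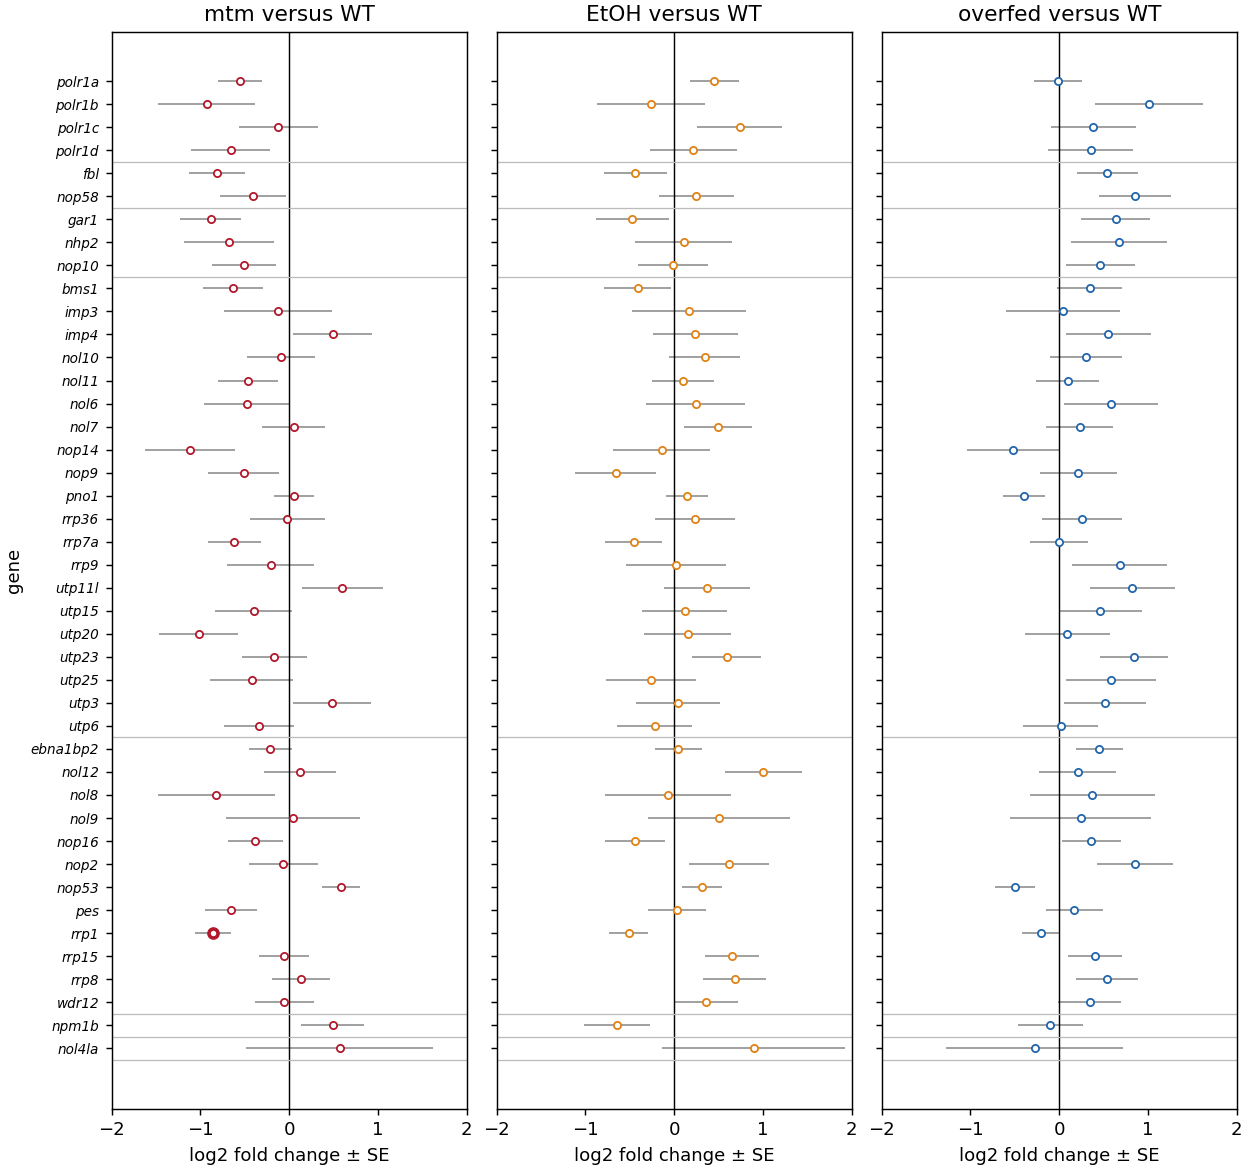
Log2 fold change ± SE of each of the 43 genes (down, by role) in *mtm*, EtOH and overfed livers, each against WT livers, from the edgeR fit. The larger filled point marks the only gene past the threshold, *rrp1* in *mtm* livers (-0.86), and overfed values lie above 0 for 35 of 43 genes.

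In EtOH livers no gene of the set passed the test. The background was 4.66% of tested genes higher and 2.7% lower, against 0 of 43 in each direction. Neither did any gene have EtOH and WT libraries without overlap, against a background of 8.06% higher and 7.63% lower. At an unadjusted p under 0.05, 2 genes of the set were higher and 1 lower, against 20.8% of all tested genes in either direction. DESeq2 called none of the set, and 906 higher and 652 lower of all genes, and the smallest edgeR adjusted p in the set was 0.181. The median log2 fold change of the set was 0.15 beside -0.03 for all tested genes, with 29 values above 0 and 14 below. It was 0.20 without the library labelled EtOH replicate 1, 0.00 without the replicate term and -0.20 without the libraries numbered 4. Its sign was thus not settled. In mean CPM 22 genes were higher and 21 lower in EtOH than in WT livers, with a median log2 ratio of the means of 0.0019.

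The smallest p was again that of *rrp1*, at 42.6, 35.8, 35.7 and 26.7 CPM in EtOH livers, against 49.4, 52.6, 67.7 and 32.8 CPM in WT livers (log2 fold change -0.51, SE 0.22, edgeR adjusted p = 0.181). Next stood *nol12*, a nucleolar RNA-binding protein of 60S assembly, at 27.2, 20.3, 17.9 and 19.4 CPM in EtOH livers, against 19.8, 8.07, 14.2 and 5.28 CPM in WT livers (1.004, SE 0.43, edgeR adjusted p = 0.192). *rrp15*, also of the 60S pathway, averaged 28.2 ± 7.31 CPM in EtOH and 19.5 ± 7.59 CPM in WT livers (0.65, SE 0.31, edgeR adjusted p = 0.238). In both genes the EtOH and WT libraries overlapped. *polr1a* and *polr1c* had log2 fold changes of 0.45 and 0.74, *fbl* and *gar1* of -0.44 and -0.47, and *nop9*, an RNA-binding protein of 40S assembly, of -0.66, all with an SE of at least 0.27. *gar1* was at 23.2, 40.1, 37.3 and 33.1 CPM in EtOH livers. Without the libraries numbered 4 edgeR called it lower than WT, as 1 of 43 genes, beside 254 of all 11734 tested genes.

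Outside the set, 4 of 14 tested genes of *MYC* and growth control were called in EtOH livers, 2 higher and 2 lower. The background was 4.66% of tested genes higher and 2.7% lower, and the median of that list was -0.25. These calls were not repeated without the library labelled EtOH replicate 1. *myca* rose to 35.8 ± 4.93 CPM in EtOH, against 13.7 ± 1.295 CPM in WT livers (log2 fold change 1.36, SE 0.36, edgeR adjusted p = 0.0286), and *mych* (1.65), another gene of the family, rose as well. *mxd3* (-4.12) and *mxd4* (-4.15), members of the MAX-binding repressor family that opposes *MYC*, fell. They averaged 0.60 and 0.85 CPM in EtOH livers, against 7.53 and 12.1 CPM in WT livers. Of the 4 Pol I initiation and elongation factors, *ubtfl*, a relative of *ubtf*, fell (-1.32). Of the 31 other 40S and 43 other 60S factors, *rcl1* (1.54) and *ddx21* (0.75) rose and none fell, and none of 68 ribosomal proteins was called.

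In overfed livers no gene of the set passed the test, and neither did any other gene. The background was 0% in both directions, with 0 of 43 genes called higher and 0 called lower. At an unadjusted p under 0.05, edgeR found 493 of all tested genes (4.29%), and of the set *utp23* was higher and *nop53* lower. DESeq2 called no gene of the set, and 15 higher and 13 lower of all genes. The set nonetheless had the highest median of the 3 comparisons with WT livers, 0.35 beside -0.04 for all tested genes, with 35 of 43 values above 0. Groups without overlap were found for 1 gene with higher overfed libraries (2.33%), against a background of 2.37%, and for 0 with lower ones, against 1.97%.

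That gene was *utp23*, a factor of the small subunit processome, at 13.5, 13.1, 13.8 and 16.8 CPM in overfed livers, against 9.36, 3.41, 9.20 and 10.9 CPM in WT livers (log2 fold change 0.84, SE 0.39, edgeR adjusted p = 0.9996). With *nol4la*, it was the only gene of the set whose replicate 4 was the highest library in both groups. *nop58* and *nop2* had log2 fold changes of 0.85 (SE 0.40) and 0.85 (SE 0.43), *polr1b* of 1.01 (SE 0.61) and *utp11l* of 0.82 (SE 0.48). *polr1b* was at 8.53, 15.5, 10.8 and 9.89 CPM in overfed livers, against 7.41, 2.59, 11.4 and 2.64 CPM in WT livers, and WT replicate 3 lay inside the overfed range. *ebna1bp2*, a 60S factor, averaged 35.8 ± 6.79 CPM in overfed and 26.5 ± 9.11 CPM in WT livers. *nop53* had the opposite sign, at 83.4, 82.3, 102 and 81.4 CPM in overfed livers, against 97.7, 156, 139 and 106 CPM in WT livers (log2 fold change -0.50, SE 0.22), with overfed replicate 3 above WT replicate 1. *pno1*, which helps mature the 40S subunit, had a log2 fold change of -0.40 (SE 0.24).

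Set against the WT library of the same number, the overfed library was higher in 25, 34, 26 and 28 of the 43 genes for replicates 1 to 4, with median log2 differences of 0.06, 0.92, 0.19 and 0.24. The largest difference was at number 2, where the level of the set was 0.68 in the overfed and -0.15 in the WT library. It was higher at all 4 numbers for 13 of the 43 genes, among them *fbl*, *gar1*, *nhp2*, *nop58* and *nop2*, and at none for *nop14* and *nop53*. Of all tested genes, 9.31% were higher at all 4 numbers. The labels do not say that a number marks a shared batch. Without the libraries numbered 4 the median was 0.39 and no gene was called, and without WT replicate 4 alone it was 0.23.

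A direct comparison of *mtm* with EtOH livers found 1 gene lower, *polr1a*, and none higher. Both groups share the WT libraries in the comparisons above, and the direct one does not use them except for the estimate of the spread and the replicate term. The share called lower was 2.33%, against a background of 4.2%, and that called higher 0 of 43, against 2.87%. At an unadjusted p under 0.05, 5 genes of the set were lower and 1 higher, against 23% of all tested genes in either direction. DESeq2 called *polr1a* lower and *npm1b* higher, and 868 lower and 852 higher of all genes. The median log2 fold change was -0.43 beside 0.03 for all tested genes, with 36 of 43 values below 0. It was -0.14 without the replicate term and -0.17 without the libraries numbered 4, and the median log2 ratio of the mean CPM was -0.14.

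*polr1a* was at 26.3 to 60.7 CPM in *mtm* livers, with a median of 34.8, against 91.9, 63.5, 58.4 and 57.0 CPM in EtOH livers. Only *mtm* replicate 2R reached the EtOH range. The means were 38.1 ± 12.6 CPM in *mtm* (SD, n = 6) and 67.7 ± 16.4 CPM in EtOH livers (SD, n = 4), with a log2 fold change of -1.01 (SE 0.26, edgeR quasi-likelihood test with Benjamini-Hochberg adjustment, adjusted p = 0.0273). The highest value was that of the library labelled EtOH replicate 1, and without it the log2 fold change was -0.88 with an edgeR adjusted p of 0.109. The call was kept in 18 of 30 alternative analyses. The other Pol I subunits *polr1b*, *polr1c* and *polr1d* had log2 fold changes of -0.67, -0.86 and -0.88 without a call.

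*npm1b* averaged 24.3 ± 16.2 CPM in *mtm* livers, against 11.6, 16.1, 6.12 and 7.90 CPM in EtOH livers (log2 fold change 1.14, SE 0.36, edgeR adjusted p = 0.0639). It was called higher in 4 of 30 alternative analyses, among them that without *mtm* replicate 1. It was not called without *mtm* replicate 2R, which held 56.8 CPM. *utp23* was the 1 gene with lower *mtm* libraries and no overlap, where the background was 4.65%. It lay at 2.86 to 8.13 CPM in *mtm* livers, against 12.5, 14.2, 9.18 and 11.1 CPM in EtOH livers (log2 fold change -0.76, SE 0.35, edgeR adjusted p = 0.210). No gene had higher *mtm* libraries without overlap, against 3.65%. *fbl* and *gar1* hardly differed in mean, with 64.1 and 33.4 CPM in *mtm* livers and 66.0 and 33.4 CPM in EtOH livers, although their fitted log2 fold changes were -0.37 and -0.42. Outside the set, *rsl1d1* (-0.69) and *sdad1* (-0.80) of the other 60S factors were lower in *mtm* livers, as were *polr3gla* (-2.55) and the Pol II gene *polr2m* (-3.82), and *ubtfl* (1.35) and *mxd3* (4.17) were higher.

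Cell type markers moved with the groups as well. Of 11 tested hepatocyte markers, 5 were called lower in *mtm* and 2 in EtOH livers, with median log2 fold changes of -0.996 in *mtm* and -0.703 in EtOH livers against WT, while higher calls in *mtm* livers covered all 6 tested macrophage, all 5 neutrophil, 5 of 8 bile duct and 3 of 12 endothelial markers. In EtOH livers 2 of 6 macrophage, 2 of 5 neutrophil, 2 of 8 bile duct and 2 of 12 endothelial markers were called higher. Of all tested genes, 10.1% were called higher and 8.59% lower in *mtm*, and 4.66% and 2.7% in EtOH livers. Intestine markers (10 listed, 8 tested) summed to 202 to 1037 CPM in *mtm* and 1425 to 1815 CPM in EtOH livers. Their sums were 6946 to 8413 CPM in overfed and 4228 to 6240 CPM in WT livers. Of the 8, 1 was called higher and 2 lower in *mtm*, and 1 lower in EtOH livers. Proliferation markers (15 listed, 12 tested) gave no call in any comparison, with a median of 0.24 in *mtm*, -0.13 in EtOH and 0.12 in overfed livers. The part of cell composition in the levels of the ribosome biogenesis genes was not tested.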

How the data were processed

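Bulk RNA of zebrafish livers was sequenced in 18 libraries, each from a pool of 40 livers at 7 dpf. Per the labels and the study's methods, the authors checked reads with FastQC 0.11.09, trimmed them with Trim Galore 0.6.6 and estimated transcript counts with Salmon against GRCz11. The deposited values are these estimated counts, given by gene as integers, with no scaling by the authors, who tested them with DESeq2 1.24.0 and the replicate as a covariate. The 6 libraries of the *abcb11b* experiment were not used here. Dates stand in place of 15 symbols, none of them in the set.

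A gene was tested if a share of 0.8 or more of the 18 libraries had 5 reads or more. Scaling used TMM (edgeR 4.0.16, R 4.3.3, limma 3.58.1), and CPM are counts relative to the TMM-scaled totals of tested genes. The 4 groups were fitted together with the replicate number as a covariate, and the edgeR quasi-likelihood p-values were adjusted by Benjamini-Hochberg over the tested genes. The SE of a log2 fold change was derived from the test, as its absolute value divided by the square root of the quasi-likelihood F statistic. A gene was called at an adjusted p under 0.05 with no fold limit, following the study's methods. Levels of libraries used log2 CPM with a prior count of 2. The code was tested on simulated data. Alternatives were other scalings, other filters, no replicate covariate, DESeq2 1.42.0, a fold limit, the compared groups alone and each library left out. The *mtm* submissions were also taken apart, or summed by replicate number. In each comparison with WT, the genes with the smallest p of each role were named, up to 3, along with 9 landmark genes, 28 genes in all, and called genes. Of 14 landmark genes listed, only these 9 were in the set. The members and lists were chosen with earlier results of these data known. Of the 43 symbols, 42 matched a RefSeq symbol and 1 an older name. Figures were drawn with matplotlib 3.10.9.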

Additional observations from a re-analysis of the deposited data

Results flagged for a closer look

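Within single groups, 11 values of the named genes stood apart from the rest of their group by Dixon's test, out of 116 groups of values examined. The 116 included the median level of the set in each of the 4 groups of libraries, where no library was marked. Chance marks about 1 in 20 groups, here 5.8. 4 of the 11 were in *mtm* replicate 2R. There *npm1b* was at 56.8 CPM, against 14.2 to 21.5 CPM in the other *mtm* libraries, *utp11l* at 34.1 CPM, against 6.65 to 13.2 CPM, *nop9* at 12.5 CPM, against 4.42 to 7.24 CPM, and *utp23* at 2.86 CPM, against 6.86 to 8.13 CPM. In other *mtm* libraries, *nop58* was at 41.1 CPM in replicate 1, against 54.4 to 58.7 CPM, and *gar1* at 22.3 CPM in replicate 3, against 31.9 to 37.5 CPM. The library labelled EtOH replicate 1 held 26.5 CPM of *utp20*, against 5.02 to 8.06 CPM in the other EtOH libraries, and 50.5 CPM of *nhp2*, against 25.9 to 28.9 CPM. *nop53* was at 102 CPM in overfed replicate 3, against 81.4 to 83.4 CPM. WT replicate 4 held 26 CPM of *polr1a*, against 58.2 to 64.2 CPM in the other WT libraries, and 14.6 CPM of *bms1*, against 44.5 to 47.8 CPM.

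Between groups, the effect of *mtm* on *polr1a* differed from that of EtOH by -1.01 on the log2 scale in the direct test of both groups, and the difference was not called without the library labelled EtOH replicate 1.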

How the results depend on the processing

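For *mtm* against WT livers the median of the 43 genes stayed below that of all tested genes in 30 of 30 alternatives, and for *mtm* against EtOH livers also in 30 of 30. For overfed livers it stayed above in 27 of 27, and for EtOH against WT livers in 25 of 27. The alternatives share most of their libraries, and some left out only a library of a group not compared, so these counts are not independent checks. None of the 15 gene values followed changed sign. Without the replicate block, 1 gene (*nop53*) was higher in *mtm* than in WT livers, and against EtOH livers 0 were lower with a median of -0.14. The main fit held the replicate number as a block, following the study's methods, although same-numbered libraries did not regularly vary together. Their deviations correlated over 0.1 in 8 of 30 pairs, from -0.23 to 0.34. Between overfed and WT they correlated at 0.22, -0.12, 0.25 and 0.34 for numbers 1 to 4. With library totals only, 1 gene was higher and 0 lower in *mtm* against WT livers, and 1 higher and 0 lower against EtOH livers, with a median of -0.063. DESeq2 called 1 gene higher in *mtm* livers against WT and 1 against EtOH livers. Without a filter 0 were lower against EtOH livers, and with at least 10 reads 1 was higher against WT livers. A log2 fold limit of 2 left 0 lower in both. With only the groups compared, 0 genes were lower against EtOH livers (median -0.15), and *gar1* took the place of *rrp1* against WT livers. With the resubmitted *mtm* libraries only, 1 gene was higher against WT livers, and 1 higher and 0 lower against EtOH livers. Without the libraries numbered 4, chosen after seeing the data, 4 genes were lower in *mtm* and 1 in EtOH livers against WT, and 0 in *mtm* against EtOH livers (median -0.17). Of all 11734 tested genes, 923 were then lower in *mtm* and 254 in EtOH livers against WT. Leaving out 1 library at a time gave 0 to 4 genes lower and 0 to 1 higher in *mtm* against WT livers, and 0 to 1 lower and 0 to 1 higher against EtOH livers. The medians then ran from -0.50 to -0.08 in *mtm* against WT, from -0.61 to -0.17 in *mtm* against EtOH, from -0.25 to 0.28 in EtOH against WT and from 0.22 to 0.54 in overfed against WT livers. Against WT, 4 genes were lower without EtOH replicate 4 or WT replicate 4, 2 without *mtm* 2R or 3R, and 0 without WT replicate 3. Of all tested genes, 988 of 11550 were lower without EtOH replicate 4 and 966 of 11557 without WT replicate 4. The causes were not tested. Genes of few counts limit precision: *nol4la*, *nol8* and *imp3* had 1, 3 and 5 counts in their lowest library.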
